A study of Mus musculus with 6 samples.

Results

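The genes described here are the NR4A nuclear receptors Nr4a1, Nr4a2 and Nr4a3, the EGR zinc finger factors Egr1, Egr2 and Egr3, the EGR corepressor gene Nab2, and Irf4, Cd69 and Tagap. They were taken by symbol from a table of read counts, where all 10 were found among 14515 gene rows. Splenic naive CD8 T cells of 3 wild type (Lair1+/+) and 3 LAIR-1-deficient (Lair1-/-) mice were profiled. LAIR-1, a receptor that binds collagen, inhibits leukocytes. Per the labels' protocols, 100000 cells per mouse were sorted for CD45, CD3 and CD8 and for absence of CD44, among other markers, and each mouse gave 1 library of total RNA. The labels name no treatment of the mice and give no age, sex, strain, litter or construction of the Lair1 allele. The members were chosen by measured values, namely their level in each library and their spread between mice against the genotype difference. The pattern between mice is therefore given as a description without a test, and the genotype values of the members describe these libraries.

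NR4A and EGR genes are immediate early genes: their transcription starts within minutes of a signal from the T cell receptor and needs no new protein synthesis. NR4A proteins are nuclear receptors that act without a known hormone and restrain T cell responses, and Nr4a1 reporters are widely used to read antigen receptor signalling. EGR proteins bind GC-rich sites through zinc fingers, Egr2 and Egr3 limit T cell activation, and NAB2 binds EGR proteins and represses their activity. CD69 is a surface lectin that holds lymphocytes in tissue by removing the egress receptor S1PR1 from the cell surface. IRF4 is a transcription factor whose amount follows the strength of the receptor signal.

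Upstream sequences of 4 members are shown because 3 of these genes (Nr4a1, Nr4a2 and Egr2) shared a pattern between mice that Nab2 did not. Irf4 shared that pattern too but is not shown. Each run is 250 bases before a RefSeq transcription start (GRCm38.p6), written 5′ to 3′ along the gene's strand. Capitals mark TGACG on either strand (the half-site of the cAMP response element), TGCGTCA, which contains the same half-site on its reverse strand, and the CArG box, the site of serum response factor. The Nr4a1, Egr2 and Nab2 starts lie inside the GENCODE gene, which has longer transcripts. The Nr4a1 run is chr15:101266596-101266845 on the plus strand, that of Nr4a2 is chr2:57124004-57124253 on the minus strand, that of Egr2 is chr10:67537619-67537868 on the plus strand and that of Nab2 is chr10:127666704-127666953 on the minus strand.
Nr4a1: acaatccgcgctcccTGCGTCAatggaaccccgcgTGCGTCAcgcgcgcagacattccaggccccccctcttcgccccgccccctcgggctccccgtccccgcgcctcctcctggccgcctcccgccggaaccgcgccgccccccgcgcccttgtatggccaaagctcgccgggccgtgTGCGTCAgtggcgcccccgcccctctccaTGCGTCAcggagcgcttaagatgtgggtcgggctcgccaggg
Nr4a2: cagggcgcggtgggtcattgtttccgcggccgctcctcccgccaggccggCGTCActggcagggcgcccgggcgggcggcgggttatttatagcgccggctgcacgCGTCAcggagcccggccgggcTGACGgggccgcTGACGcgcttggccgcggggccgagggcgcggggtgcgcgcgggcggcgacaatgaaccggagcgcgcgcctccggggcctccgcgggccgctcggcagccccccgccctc
Egr2: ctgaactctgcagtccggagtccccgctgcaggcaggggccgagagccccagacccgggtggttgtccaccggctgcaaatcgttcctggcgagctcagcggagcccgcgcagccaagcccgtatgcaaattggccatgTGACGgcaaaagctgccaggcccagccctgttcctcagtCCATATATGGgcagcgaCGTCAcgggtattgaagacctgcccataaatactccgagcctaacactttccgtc
Nab2: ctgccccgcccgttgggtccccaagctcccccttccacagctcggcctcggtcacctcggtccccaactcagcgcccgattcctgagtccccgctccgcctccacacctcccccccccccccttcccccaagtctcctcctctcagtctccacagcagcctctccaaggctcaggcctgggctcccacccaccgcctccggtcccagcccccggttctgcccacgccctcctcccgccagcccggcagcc

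The motifs were chosen after the sequences were seen, so nothing is read from the shares of windows given here. The Nr4a1 run held 4 TGCGTCA sites. Of 32851 RefSeq promoter windows of the same length, 1.75% held at least 1 on either strand. The Nr4a2 run held 4 separate TGACG half-sites, and 17.8% of windows held at least 1. In the Egr2 run, 2 TGACG half-sites flanked 1 CArG box, a motif present in 1.47% of windows. Egr2 has 5 RefSeq windows: 3 overlapping ones, of which 1 is shown, held both motifs, 1 held a CArG box without a half-site, and 1 held no searched motif. No searched motif was found in the Nab2 run. The window of Irf4, which shared the pattern between mice, also held none, as did that of Tagap, which did not share it. The Nr4a3 window held 4 TGACG half-sites. Whether these motifs have a part in the pattern was not tested. The full element TGACGTCA (1.55% of windows), the EGR site GCGTGGGCG (0.536%) and the NR4A site AAAGGTCA (1.34%) were in none of the 7 members' windows. These matches describe letters in a window, and promoters of Egr1, Egr3 and Cd69 were not used here.

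Library totals ranged from 5519748 to 9187017 counts, and Lair1 had 32 to 58 counts in wild type and 1 to 2 in LAIR-1-deficient libraries. Markers of the sorted cell type were present: all 14 listed CD8 T cell genes passed the count filter, among them Cd8b1 at 1457 to 1577 CPM. Levels are counts per 1000000 after scaling by TMM, a method that evens out library composition, and are called CPM below. They should be compared between libraries of 1 gene, not between genes, because the part of a transcript that the reads cover is not given. Of the 10 members, 8 passed the filter for the genotype test over 9565 genes. Nr4a3 and Egr3 did not.

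Among the nuclear receptors, Nr4a1 (chromosome 15, 101254269 to 101274795, plus strand, GRCm38, protein coding) was high in mouse 1 of each genotype. Its level was 473, 80.4 and 113 CPM in wild type mice 1 to 3 and 588, 78.3 and 56.7 CPM in LAIR-1-deficient mice 1 to 3. The 2 mouse 1 libraries stood above all 4 others and the genotypes overlapped. Mouse 1 was 4.88-fold above the mean of mice 2 and 3 in wild type and 8.71-fold above it in LAIR-1-deficient cells. Nr4a2 (chromosome 2, 57106830 to 57124003, minus strand), a close relative, was at 9.84, 2.19 and 6.84 CPM in wild type and 12.7, 2.13 and 4.24 CPM in LAIR-1-deficient mice 1 to 3. Mouse 1 again had the highest Nr4a2 level of each genotype, but wild type mouse 3 came near it, and mouse 1 of wild type was 1.44-fold above that library. Nr4a3 (chromosome 4, 48045153 to 48086447, plus strand) was near the detection limit. It had 9, 0 and 2 counts in wild type and 1, 0 and 0 counts in LAIR-1-deficient mice 1 to 3. Counting 3 reads as the limit that a count of 0 allows, libraries with none could hold up to between 0.328 and 0.534 CPM of Nr4a3. LAIR-1-deficient mouse 1, where Nr4a1 and Nr4a2 were highest, had 1 Nr4a3 count, and wild type mouse 1 had most of them.

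The EGR factors were likewise highest in mouse 1 where they were measurable. Egr1 (chromosome 18, 34859823 to 34864984, plus strand) was at 604, 140 and 175 CPM in wild type and 567, 136 and 102 CPM in LAIR-1-deficient mice 1 to 3. The lower of the mouse 1 libraries was 3.24-fold above the highest other library. Egr2 (chromosome 10, 67535475 to 67542188, plus strand) was at 88.3, 22.3 and 30.9 CPM in wild type and 109, 17.3 and 18.0 CPM in LAIR-1-deficient mice 1 to 3. Its lower mouse 1 library was 2.86-fold above the highest of the rest. Egr3 (chromosome 14, 70077203 to 70082614, plus strand) had 2, 1 and 2 counts in wild type and 9, 1 and 0 counts in LAIR-1-deficient mice 1 to 3. Only LAIR-1-deficient mouse 1 had more than 2 Egr3 counts.

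Nab2 (chromosome 10, 127660918 to 127668568, minus strand) did not follow the factors whose protein it binds. It was at 80.0, 75.0 and 70.3 CPM in wild type and 60.1, 72.4 and 73.6 CPM in LAIR-1-deficient mice 1 to 3. LAIR-1-deficient mouse 1, the library with the highest Egr2, had the lowest Nab2. Nab1, the related corepressor gene on a list of partners, was at 18.9 to 24.1 CPM in the 6 libraries.

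Cd69 (chromosome 6, 129267325 to 129275436, minus strand) was at 907, 191 and 232 CPM in wild type and 973, 169 and 210 CPM in LAIR-1-deficient mice 1 to 3. Both mouse 1 libraries were at least 3.91-fold above each other library. S1pr1, whose protein CD69 removes from the surface, was at 545 to 623 CPM in the 6 libraries, with mouse 1 of each genotype inside the range of the others. Irf4 (chromosome 13, 30749226 to 30766976, plus strand) was at 6.68, 0.766 and 4.15 CPM in wild type and 11.2, 1.96 and 2.05 CPM in LAIR-1-deficient mice 1 to 3. Mouse 1 of each genotype was highest, with counts of 53 and 78 against 7 to 37 in the others, so single Irf4 levels carry a large counting error.

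Tagap (chromosome 17, 7926000 to 7934897, plus strand) departed from the rest. It was at 3.66, 1.64 and 1.57 CPM in wild type and 3.32, 4.45 and 2.46 CPM in LAIR-1-deficient mice 1 to 3, from 14 to 29 counts. Its highest library was LAIR-1-deficient mouse 2. A near-identical gene, Tagap1 (chromosome 17, 6955011 to 6961156, minus strand), was chosen after its values were seen. The longest protein-coding transcripts of the pair (Tagap-201 and Tagap1-201, GENCODE vM21) matched at 98.8% of 2171 aligned bases. Tagap1 was at 4.16, 1.42 and 1.01 CPM in wild type and 3.89, 0.711 and 0.684 CPM in LAIR-1-deficient mice 1 to 3, and so was highest in both mouse 1 libraries. How the authors assigned reads that fit both copies is not given, so each row is uncertain. Summed over both rows, the level was 7.82, 3.06 and 2.58 CPM in wild type and 7.21, 5.16 and 3.14 CPM in LAIR-1-deficient mice 1 to 3. On this sum mouse 1 of each genotype was again highest.

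**Figure D1:**
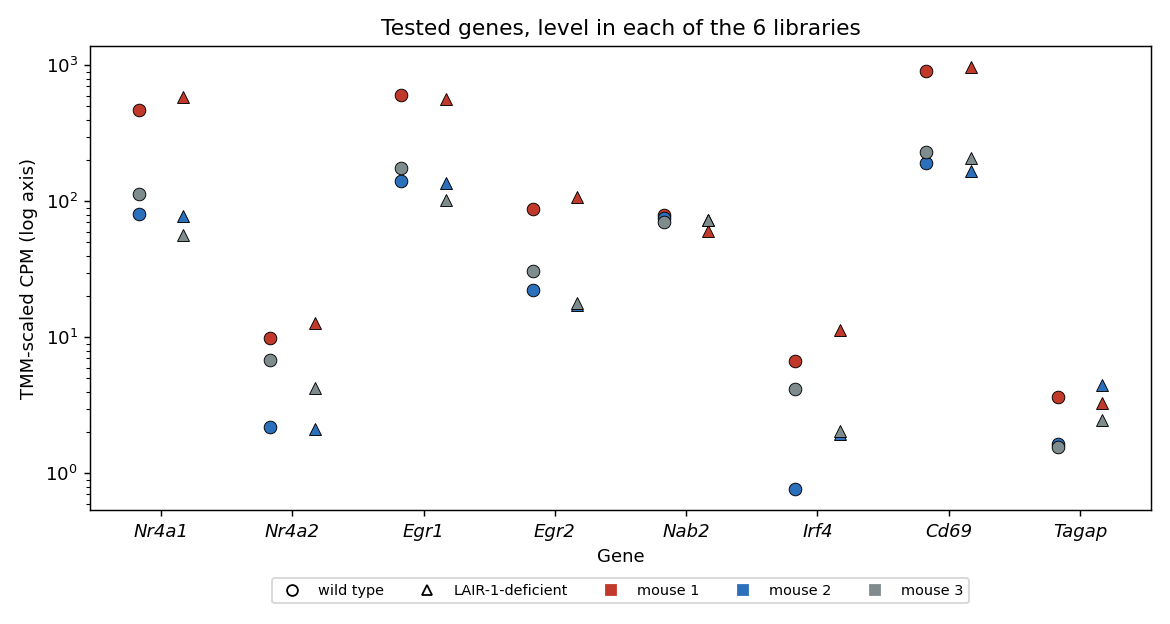
Level of each of the 8 tested genes in TMM-scaled CPM (log axis), with wild type mice as circles, LAIR-1-deficient mice as triangles and colours for mouse number, 1 point per library. For Nr4a1, Nr4a2, Egr1, Egr2, Irf4 and Cd69 both mouse 1 points (red) lie above the 4 others, while Nab2 and Tagap do not show this.

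Of the 8 tested members, 6 were highest in both mouse 1 libraries, beside 11.9% of all genes tested. By more than 2-fold this held for 4 members (Nr4a1, Egr1, Egr2 and Cd69), beside 0.261% of all genes tested, or 25 genes. Because members were chosen with this pattern known, nothing is read from those shares. Among the 25 genes, Nr4a1 had the widest gap between its lower mouse 1 library and the next library (4.17-fold), followed by Cd69. The other genes comprised 9 of the list of other immediate early genes, such as Fosb, Dusp1, Fosl2 and Zfp36, and Tnf and Nfkbid of the list of activation-induced genes. The remaining 10 were on no list and are named after their values were seen: Maff, Gem, Zc3h12a, Tagap1, Plk3, Tgif1, Sik1, Odc1, Nfil3 and Utf1.

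**Figure D2:**
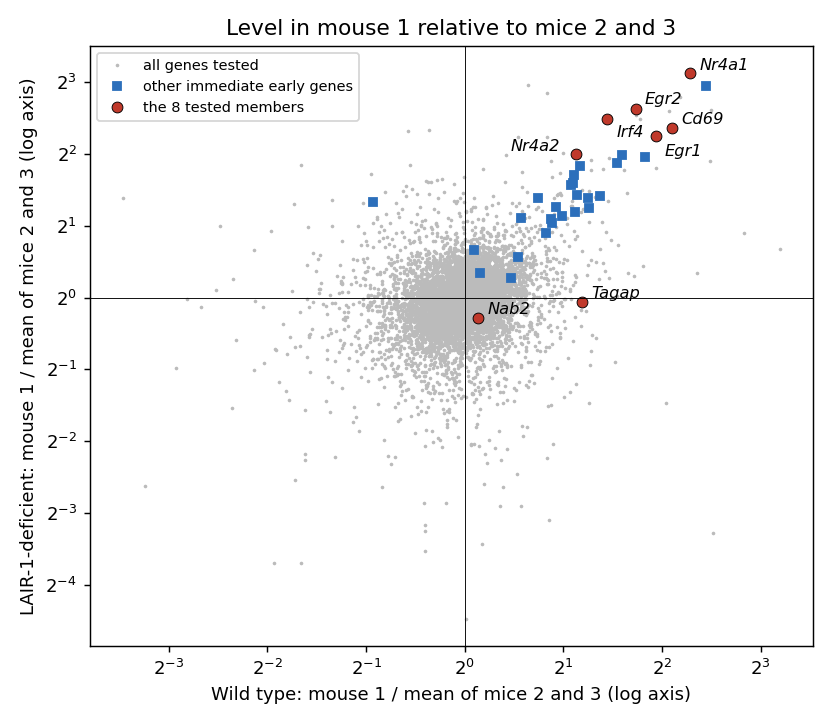
Level in mouse 1 divided by the mean of mice 2 and 3, in wild type (horizontal) and LAIR-1-deficient cells (vertical), both on log axes, for all genes tested with values above 0 (grey), other immediate early genes (blue) and the 8 tested members (red). Nr4a1 lies at 4.88 and 8.71, while Nab2 (1.10 and 0.824) and Tagap (2.28 and 0.96) lie apart from the remaining members.

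Likeness of profiles was measured as the root mean square distance between log2 CPM values over the 6 libraries, each gene centred on its own mean, from the median profile of the 8 tested members. Among members, Cd69 (0.180), Egr2 (0.191) and Egr1 (0.244) lay nearest to that profile, and Nr4a2 (0.402), Nr4a1 (0.442) and Irf4 (0.509) lay farther. Tagap (0.873) and Nab2 (0.976) were about as far as the median of 8993 other named genes, which was 0.941. The closest pair of members was Egr1 and Egr2, at 0.197. The 8 nearest genes outside the members were Fosl2 (0.152), Dusp1 (0.153), Zc3h12a (0.167), Tnf (0.206), Nfkbid (0.207), Plk3 (0.211), Jun (0.226) and Fos (0.287). Fosl2, Jun and Fos encode AP-1 subunits, Dusp1 a phosphatase of MAP kinases, Zc3h12a the RNA-degrading enzyme Regnase-1, Nfkbid an atypical inhibitor of NF-kappaB and Plk3 a stress-responsive kinase. These distances rest on 6 points per gene, and all genes share the depth and composition of those libraries. They count the size of a change as well as its direction, and the median profile comes from the members themselves.

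Spread between mice was large beside the genotype difference for the members that were high in mouse 1. The pooled SD of log2 CPM between mice of a genotype was 1.61 for Nr4a1, 1.40 for Irf4, 1.30 for Cd69, 1.29 for Egr2, 1.23 for Egr1 and 1.15 for Nr4a2. These values were above those of 99.62% or more of genes tested, whose median SD was 0.20. The SD was 17.4 times the absolute difference of genotype means for Cd69, 10.4 times for Nr4a2, 6.70 times for Nr4a1 and between 4.06 and 4.63 times for Egr1, Egr2 and Irf4. The median of this ratio over all genes tested was 1.83. The median absolute difference was 0.11 over all genes tested and 0.26 over the 8 members. Nab2 had an SD of 0.13, below the median of all genes, with a difference of -0.13. Tagap had an SD of 0.52 and a difference of 0.58. The SD exceeded the difference for 6 of 8 members, beside 74.4% of all genes tested. Without the mouse 1 libraries the SD dropped to 0.34 for Nr4a1, 0.26 for Egr1, 0.23 for Egr2 and 0.21 for Cd69, beside a median of 0.16 over all genes tested. The SD then exceeded the difference for 4 of 8 members. The share of 74.4% is for all 6 libraries and none is given for mice 2 and 3 alone, so nothing is read from this count. For Irf4 and Nr4a2 it was still 1.05 and 0.89 in mice 2 and 3 alone.

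**Figure D3:**
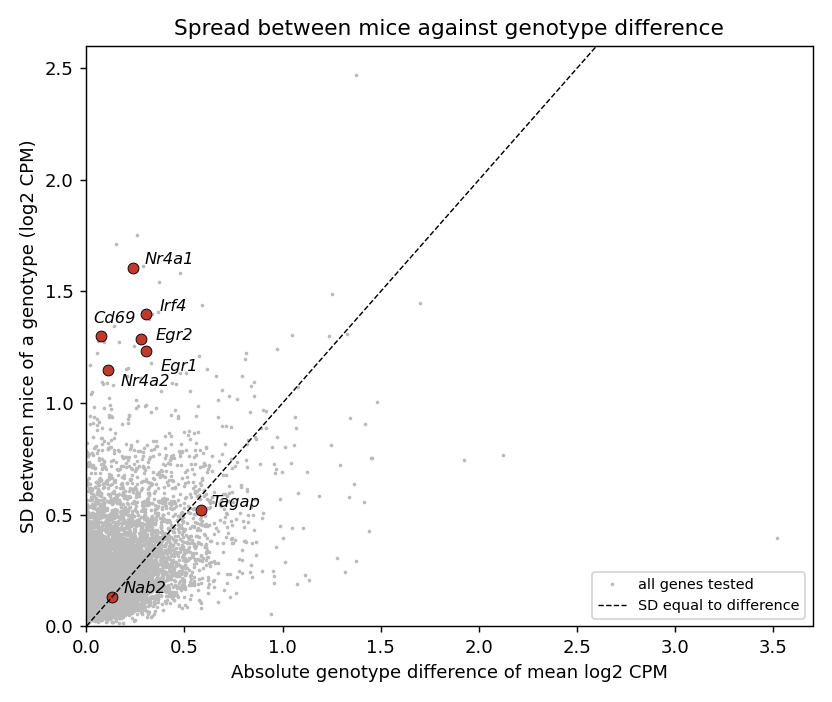
Pooled SD between mice of the same genotype against the absolute genotype difference, both in log2 CPM, for all genes tested (grey) and the 8 tested members (red), with a dashed line where they are equal. Nr4a1, Nr4a2, Egr1, Egr2, Irf4 and Cd69 have SDs of 1.15 to 1.61 and differences of at most 0.30, and Nab2 lies on the line.

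The comparison of LAIR-1-deficient with wild type cells asks whether loss of the receptor changes these genes at baseline. In edgeR's quasi-likelihood test over all genes, 0 of 8 members were called higher and 0 lower at an adjusted p under 0.05, where the share of all genes tested called was 0% higher and 0.0105% lower. At an unadjusted p under 0.05 the count was also 0 of 8, beside 3.25% of all genes tested, and DESeq2 called 0 members. The genotypes overlapped for all 8 members, while 8.38% of all genes tested did not overlap (4.3% with the LAIR-1-deficient libraries higher, 4.09% with them lower). The Benjamini-Hochberg adjusted p from edgeR was 0.9999 for each of the 8. The median log2 fold change was 0.05 over the 8 members and 0.000588 over all genes tested.

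The precision of the genotype values differed between members. Nr4a1 had a fold change of 0.12 (log2; SE 1.31), and its 95% interval ran from -3.43 to 3.68, or from 0.0925 to 12.8 as a fold. Egr1 was at -0.19 (-2.95 to 2.57), Egr2 at 0.04 (-2.81 to 2.90), Cd69 at 0.02 (-2.90 to 2.95), Irf4 at 0.43 (-2.36 to 3.22) and Nr4a2 at 0.05 (-2.17 to 2.27). These intervals include differences above 4-fold in either direction. For Nab2 the value was -0.13 with an interval of -0.37 to 0.11, the only member whose interval lay within 2-fold. Tagap was at 0.57 (-0.31 to 1.45). For Nr4a1, Nr4a2, Egr2 and Cd69 the sign depended on the average: the difference of mean log2 CPM was -0.24, -0.11, -0.28 and -0.07, opposite to the edgeR value.

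Leaving out mouse 1 of both genotypes, an alternative chosen with the pattern known, gave narrower intervals for the 6 members that were highest in mouse 1. In mice 2 and 3, the log2 fold changes and their 95% intervals were -0.53 (-0.91 to -0.15) for Nr4a1, -0.41 (-0.70 to -0.12) for Egr1 and -0.59 (-0.98 to -0.20) for Egr2. For these genes both LAIR-1-deficient libraries were below both wild type libraries, although Nr4a1 and Egr1 of LAIR-1-deficient mouse 2 (78.3 and 136 CPM) were close to wild type mouse 2 (80.4 and 140 CPM). The edgeR adjusted p was 0.916 for each, so none passed the test. At an unadjusted p under 0.05, 3 of 8 members were lower, beside 2.17% of all genes tested, and 3 of 8 were lower without overlap, beside 16.3%. Both the members and the omitted libraries were chosen with these values known, so these intervals and counts describe the libraries and nothing is read from the shares. Cd69 was at -0.16 (-0.42 to 0.10), Nr4a2 at -0.47 (-1.54 to 0.60) and Irf4 at -0.29 (-1.64 to 1.06), while the difference of mean log2 CPM in the same libraries was 0.089 for Irf4. Tagap was at 1.07 (-0.02 to 2.15) and higher without overlap, where 16.6% of genes were. With 1 library left out at a time, the fold change of Nr4a1 moved from -1.73 without LAIR-1-deficient mouse 1 to 1.32 without wild type mouse 1.

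**Figure D4:**
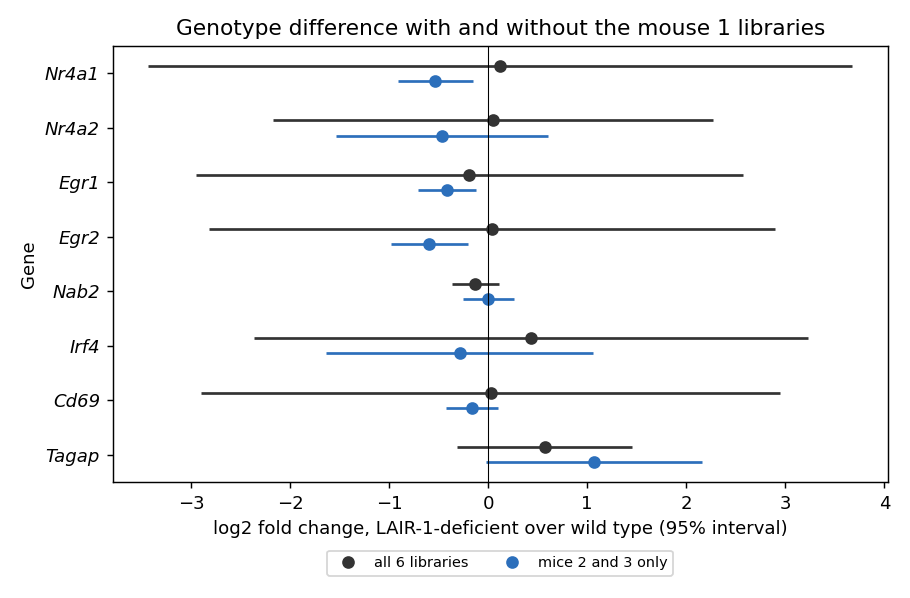
Log2 fold change of LAIR-1-deficient over wild type for the 8 tested members, with 95% intervals from edgeR, for all 6 libraries (dark) and for mice 2 and 3 only (blue). Intervals of Nr4a1, Egr1 and Egr2 narrow without the mouse 1 libraries and their values lie at -0.53, -0.41 and -0.59, while that of Nab2 is narrow in both.

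Genes around these factors were read from lists. Of 25 tested other immediate early genes, 23 were highest in both mouse 1 libraries. The share over all genes tested was 11.9%, and it stands beside each list count given here and below. Lists were chosen with earlier results known, so nothing is read from these counts. In the genotype test 0 of the 25 genes were called, with 18 positive and 7 negative fold changes and a median of 0.05. Junb was at 2614, 1468 and 1485 CPM in wild type and 2732, 1528 and 1397 CPM in LAIR-1-deficient mice 1 to 3. Of 17 partners of NR4A and EGR proteins, 3 were highest in both mouse 1 libraries (Nfatc1, Srf and Trib1) and 0 were called between genotypes, with 9 positive and 8 negative and a median of 0.02. The lower mouse 1 library was close to the next for Srf (81.0 against 80.4 CPM) and 1.04-fold above it for Nfatc1. Nfatc1, a calcineurin-dependent factor, was at 106 to 129 CPM, and Hdac7 at 67.4 to 96.2 CPM.

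Feedback and later genes of the receptor pathway were read in the same way. Of 26 feedback inhibitors of antigen receptor signalling, 3 (Socs1, Rgs1 and Rgs2) were highest in both mouse 1 libraries and 0 were called between genotypes, with 13 positive and 13 negative and a median of -0.0067. Lowest in both mouse 1 libraries were 5 of these 26, beside 1160 of all 9565 genes tested. The same held for 1 of the partners, 1 of the activation-induced genes and 0 of the other immediate early and egress genes. Cd5, whose level is set by receptor signals during development, was at 92.1, 93.8 and 90.2 CPM in wild type and 92.7, 80.0 and 68.9 CPM in LAIR-1-deficient mice 1 to 3. Dgka, a diacylglycerol kinase, was at 1325 to 1522 CPM. Of 21 activation-induced genes, 5 were highest in both mouse 1 libraries (Tnfrsf18, Nfkbid, Ccl4, Tnf and Bhlhe40) and 0 were called between genotypes, with 12 positive and 9 negative and a median of 0.03. For Tnfrsf18 the lower mouse 1 library (28.1 CPM) was close to the next library (27.5 CPM). Nfkbid was at 341, 113 and 146 CPM in wild type and 442, 137 and 118 CPM in LAIR-1-deficient mice 1 to 3. Cd44 was at 12.0, 13.1 and 12.5 CPM in wild type and 21.8, 14.8 and 11.2 CPM in LAIR-1-deficient mice 1 to 3. Of 10 genes of the egress pathway, 3 (Klf2, Klf3 and Gnai2) were highest in both mouse 1 libraries. The gaps were small for 2 of them: Gnai2 was at 1327.7 CPM in wild type mouse 1 and 1327.5 CPM in LAIR-1-deficient mouse 2. Klf3 was at 243 CPM in LAIR-1-deficient mouse 1 and 232 CPM in LAIR-1-deficient mouse 2. Klf2, the factor that drives S1pr1 transcription, was at 1498, 1138 and 1103 CPM in wild type and 1956, 1019 and 1048 CPM in LAIR-1-deficient mice 1 to 3. None of the 10 was called between genotypes, with 7 positive and 3 negative and a median of 0.05. In these lists, the genes with the smallest genotype p, none of which passed, had log2 fold changes of -0.19 (Hdac7), -0.32 (Elk4), -0.19 (Cd5), -0.26 (Ubash3b), 0.52 (Slamf1), 0.34 (Cd44), -0.32 (Ier3), 0.19 (Arc), 0.92 (Gnaq) and 0.15 (Arhgef1).

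Other measures also differed between the mouse 1 libraries and the rest, and their part in the pattern was not tested. Mitochondrially encoded genes took 15.6% and 17.2% of counts in the mouse 1 libraries and 19.2% to 21.1% in the others, and cytosolic ribosomal protein genes took 22.7% to 23.7% against 20.6% to 22.1%. Total counts of the mouse 1 libraries lay inside the range of the others. Of 11 tested heat shock genes, 5 were highest in both mouse 1 libraries: Hspa1b, Dnajb1, Hspa5, Dnajb4 and Hsp90aa1. For Hspa1b, mouse 1 was 1.78-fold above the mean of mice 2 and 3 in wild type and 4.71-fold above it in LAIR-1-deficient cells. These ratios were 1.42 and 1.48 for Dnajb1, 1.54 and 1.39 for Hspa5, 1.36 and 1.41 for Dnajb4 and 1.05 and 1.11 for Hsp90aa1. The summed level of all 14 was 3917 to 3959 CPM in mouse 1 and 3483 to 4255 CPM in the others. Hsp90ab1, the most abundant of them, was at 1675 to 1975 CPM and Hspa8 at 712 to 1002 CPM in the 6 libraries. Neither was highest in both mouse 1 libraries, and the sum mostly describes these genes. Summed markers of B cells (8 of 9 listed genes in the table) were at 37.1 to 40.1 CPM in mouse 1 and 35.6 to 39.4 CPM in the others, and those of myeloid cells (12 of 12) at 15.6 to 22.2 and 15.3 to 25.3 CPM. Dendritic cell markers (7 of 7) were at 1.15 to 1.77 and 0.711 to 2.19 CPM. NK cell markers (5 of 6) summed to 38.3 to 41.4 and 50.6 to 58.7 CPM. Nearly all of this was Eomes, while Klrb1c had 9 counts and Klre1 3 over the 6 libraries, so the sum describes Eomes. CD4 T cell markers (5 of 5) were at 6.43 to 9.66 and 2.95 to 6.73 CPM. Of the 3 tested, only Ctla4 was highest in both mouse 1 libraries. Cd4 itself was at 0.757, 0.547 and 1.68 CPM in wild type and 0, 1.42 and 2.46 CPM in LAIR-1-deficient mice 1 to 3. Erythroid and platelet markers (6 of 9) were at 36.5 to 40.1 and 27.9 to 172 CPM. No marker in the table was at 0 in all libraries, but Lyz2 had 2 counts, and Ncr1 and Clec9a 1 each, over the 6 libraries. In bulk RNA, more cells of a kind and more RNA per cell cannot be told apart. All libraries had 243 or more Xist counts and at most 1 Ddx3y count, so sex did not differ between them by these genes.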

How the data were processed

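The comparison was between 3 LAIR-1-deficient and 3 wild type libraries, with groups and mouse numbers from the sample titles and columns matched by sample descriptions. The authors deposited raw counts, 1 row a gene, per the file headers. The submitters' processing notes name BWA and mm10; no source used here gives the annotation, the counting tool, the strand setting or molecular identifiers, so overlapping and near-identical genes cannot be separated. The 4 spike-in rows (0 to 4 counts per library) were left out.

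The genotype test was run in R 4.3.3 with edgeR 4.0.16: filterByExpr at a smallest count of 10, TMM scaling, a robust quasi-likelihood F test without covariates, two-sided, adjusted by Benjamini-Hochberg over 9565 genes at a threshold of 0.05. DESeq2 1.42.0, other scalings and filters, a mouse number block and omitted libraries were alternatives. The SE came from the fold change and F statistic. Log2 CPM used a prior count of 2. The script was tested on simulated counts. No 2 libraries agreed within sampling noise (chi-square per gene 4.99 to 23.4, where noise gives about 1). P-values weigh the genotype difference against the spread between mice, and count limits cover counting error only.

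The members, lists and alternatives were chosen with earlier results of these data known, and motifs after the sequences were seen. Named genes are all members, the 8 genes nearest to their profile, and from each list the most abundant genes and those with the smallest p, of which some are left unprinted; genes counted as highest in mouse 1 were named after their values were seen. Coordinates are from GENCODE vM21 (GRCm38). Promoter sequences are from a set of windows at RefSeq starts (GRCm38.p6), and the set used here held 7 of 10 members.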

Additional observations from a re-analysis of the deposited data

How the results depend on the processing

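No member was called in either direction under any alternative run. Under both other scalings 6 members were still highest in both mouse 1 libraries. The count of members with a spread above the genotype difference ranged from 4 without mouse 1 of both genotypes to 8 without wild type mouse 2. No share over all genes is given for each of these settings, so nothing is read from that range. Over all genes, 0 were called higher and 1 lower (Lair1). Without a count filter these counts were 1 and 2. With a smallest count of 30, where Tagap was not tested, and without mouse 1 of both genotypes, 0 were called lower. With 1 library left out they ranged from 0 to 1 higher and from 0 to 2 lower. DESeq2 gave Nr4a1 no p.

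The sign of most members depended on single libraries. Log2 fold changes with 1 library left out ranged from -1.73 to 1.32 for Nr4a1, -0.93 to 0.52 for Nr4a2, -1.37 to 0.77 for Egr1, -1.41 to 0.86 for Egr2, -0.93 to 1.06 for Irf4 and -1.23 to 1.09 for Cd69. Nab2 stayed negative and Tagap positive in those fits. Without mouse 1 of both genotypes the value was -0.53 for Nr4a1, -0.47 for Nr4a2, -0.59 for Egr2, 0.0027 for Nab2, -0.29 for Irf4 and -0.16 for Cd69.

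With mouse number as a replicate block, the intervals of the 6 members highest in mouse 1 were narrower than without it. The value was -0.21 (-1.42 to 1.00) for Nr4a1, -0.085 (-0.66 to 0.49) for Nr4a2, -0.30 (-0.57 to -0.03) for Egr1, -0.21 (-0.59 to 0.16) for Egr2, 0.28 (-0.51 to 1.07) for Irf4 and -0.071 (-0.25 to 0.11) for Cd69. The edgeR adjusted p was 0.9994 for each (for Egr1, unadjusted p = 0.033), and 0 genes were called higher and 1 lower. In this fit 448 of 9565 genes had an unadjusted edgeR p under 0.05, beside 311 without the block. Members were chosen with their spread between mice known, so nothing is read from the narrower intervals or the Egr1 value. Deviations of same-numbered mice correlated over genes at 0.29, 0.0094 and 0.065 for mice 1 to 3. Mice 2 and 3 did not correlate best with their own number. The labels do not say whether same-numbered mice shared a litter, day or batch, and this was not tested. The main fit did not take the numbers as pairs. Counts under about 10 limit Nr4a3 and Egr3.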
